A study of Callithrix jacchus with 71 samples.

Results

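Genes of hedgehog reception and transcription were followed in single marmoset cells, namely the co-receptors BOC, CDON, GAS1 and LRP2, the receptor PTCH1, the transducer SMO, the decoy receptor HHIP, and the transcription factors GLI1, GLI2 and GLI3. They were listed by name, and all 10 had a row among the 23561 named genes of the deposited table. The members were chosen by measured values of these same cells, the levels of BOC and LRP2 beside PTCH1 and GLI1 in single cells, so those levels are a description and carry no test. The 71 cells, 1 library per cell, were sequenced by a full-length total RNA method (RamDA-seq) to characterise neural stem-like cells. They comprised 65 induced neural stem-like cells (iNSLCs) of clone E01F A-2, made from the embryonic marmoset dorsal-skin fibroblasts E01F with episomal reprogramming vectors that such cells still carried, and taken at passage 1 in NSM, a medium described for naive-state pluripotent cells. Against them stood 4 embryonic stem cells (ESCs, line No. 40) and 1 vector-free induced pluripotent stem cell (iPSC, E01F A-2-2, made from the same fibroblast line), all grown in ESC medium, and 1 cell of the E01F fibroblasts themselves. The ESCs and the iPSC are called PSC cells below where they are pooled.

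Hedgehog ligands act by relieving repression. Without ligand, PTCH1 keeps SMO inactive and GLI3, and in part GLI2, are processed into repressors; with ligand bound to PTCH1 and its co-receptors, SMO enters the primary cilium and full-length GLI2 and GLI3 act as activators. PTCH1, HHIP and GLI1 are themselves induced by this signal, which makes them the usual transcript readouts of it, and in the neural tube the pathway patterns the ventral side while BOC, CDON, GAS1 and LRP2 set how strongly progenitors respond.

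Each group is 1 culture, so no p-value is given between groups, the spread quoted is between cells, and intervals cover counting error only. Depth was 82268 to 695241 reads in iNSLCs, 134328 to 1003718 in ESCs, 302617 in the iPSC and 1294430 in the fibroblast, and iNSLCs had 7574 to 13058 detected genes. The labels were checked against marker genes. Of 10 neural stem cell markers, 9 were at least 2-fold higher in iNSLCs than in PSC cells, and their summed level was 1264 to 8560 normalized counts per iNSLC and 123 to 233 per PSC cell. The sum does not separate iNSLCs from the fibroblast, which had 7266, nearly all of it VIM (7161). VIM was also the largest part of the sum in iNSLCs, with a mean of 2771, against 5.96 in PSC cells. All 9 pluripotency markers were at least 2-fold lower, with summed levels of 0 to 117 in iNSLCs and 424 to 1509 in PSC cells, and TDGF1, CDH1, PRDM14 and UTF1 had no read in any iNSLC. Fibroblast markers summed to 0 to 1074 in iNSLCs, 77.2 to 465 in PSC cells and 28532 in the fibroblast. The largest part of this sum in iNSLCs was COL1A2, with a mean of 104, a highest value of 1069 and a read in 45 of 65 iNSLCs. Neuron markers summed to 4.34 to 393 in iNSLCs and 0 to 44.9 in PSC cells, and their part in the results below was not tested. Of 8 neural crest markers, 6 had a mean of at least 1, of which 4 were higher in iNSLCs than in PSC cells and 1 lower, with summed levels of 3.38 to 417 in iNSLCs and 0 to 76.9 in PSC cells. The higher ones were PAX3 and PAX7, which are also dorsal neural tube genes (means of 95.2 and 20.7 in iNSLCs), SNAI2 (4.89, read in 40 of 65 iNSLCs) and TFAP2B (1.14, read in 3). The lower one was TFAP2A (1.77 in iNSLCs and 13.7 in PSC cells, of which 1 had a read). TWIST1 passed 2-fold in neither direction (0.979 and 0.833). SOX10 and FOXD3, with means under 1 over all cells, averaged 0.389 and 0 in iNSLCs and 1.51 and 4.19 in PSC cells. The part of neural crest cells in the results was not tested.

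Levels are the authors' normalized counts, in which 1 read is worth 0.441 to 2.84 in an iNSLC. They are not divided by transcript length, so they are compared between cells for a gene and not between genes. A ratio is log2 of the mean over iNSLCs plus 1 over the mean of the other cells plus 1, and a gene is counted as higher or lower at an absolute log2 ratio of at least 1, that is 2-fold. Of the 10 genes, 8 were higher in iNSLCs than in PSC cells, 1 was lower and 1 was neither; over 14150 named genes with a mean of at least 1, 17.3% were higher and 24.5% were lower. The median log2 ratio was 2.07 for the 10 genes and -0.16 for all genes. Against the fibroblast, 7 of the 10 were higher and 0 lower, beside 27.7% and 21.8% of all genes, with medians of 1.21 and 0.10. GLI1 is among those 7 although its iNSLC mean lies under the level of 3 reads in the fibroblast library; without it, 6 of 9 were higher with a median of 1.32. All 10 genes passed the mean of 1, but GAS1, LRP2 and HHIP, all counted as higher than in PSC cells, did so only through iNSLCs. Because these contrasts were known when the genes were listed, nothing is read from the counts. When all cells were set to 1 common total, the median over all genes shifted by 0.25 for the ratio to PSC cells and by 0.61 for that to the fibroblast, and values relative to that median are given where it matters.

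**Figure D1:**
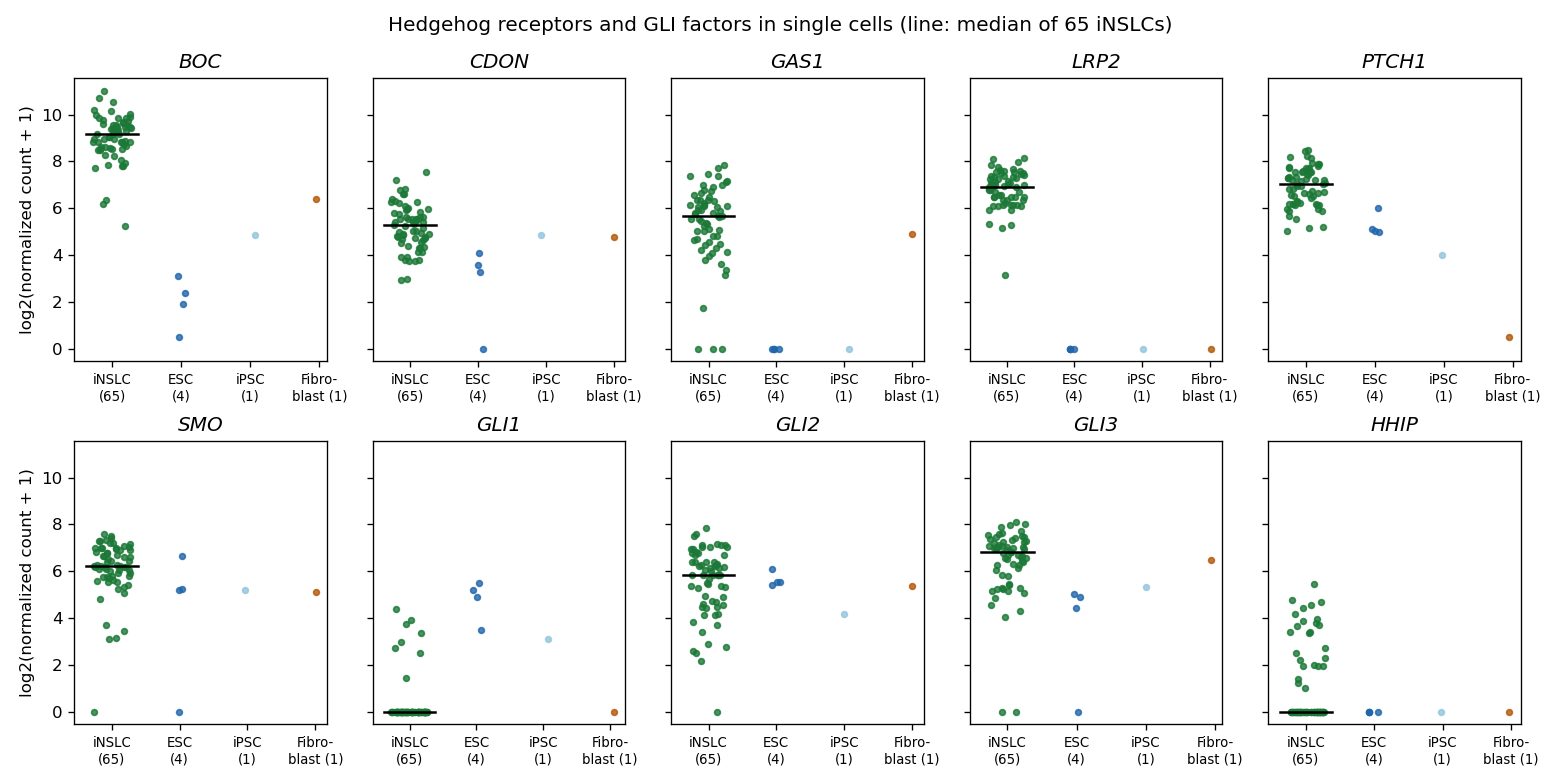
Normalized counts of the 10 genes in each of 71 cells, as log2(normalized count + 1), with 1 point per cell, groups from left to right iNSLC, ESC, iPSC and fibroblast, and a line at the median of the 65 iNSLCs. Every iNSLC lies above every PSC cell for BOC and LRP2, most iNSLCs lie at 0 for GLI1 and HHIP, and all PSC cells have GLI1.

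BOC, an immunoglobulin-family co-receptor that binds hedgehog ligand together with PTCH1, was present in every iNSLC. Its level had a lowest value of 36.8, a median of 568 and a highest value of 2038 normalized counts over the 65 iNSLCs. It was 0.40, 7.66, 2.70 and 4.17 in the 4 ESCs (cells 10, 11, 12 and 14), 27.8 in the iPSC and 83.0 in the fibroblast. Every iNSLC lay above every PSC cell, a property shared by 34 of the 14150 genes (0.24%) and by 2 of the 10 genes here, BOC and LRP2. Genes with every iNSLC below every PSC cell are not in that count. The margin was narrow at the bottom, where iNSLC 75 had 36.8 against 27.8 in the iPSC, and iNSLCs 75, 47 and 38 lay below the fibroblast. Mean levels were 614 ± 361 in iNSLCs and 8.54 ± 11.1 in PSC cells (SD over 65 and 5 cells), a log2 ratio of 6.01 that ranged from 5.73 to 7.02 when each PSC cell was left out in turn. The value of 7.02 came without the iPSC, the PSC cell with the most BOC. Against the fibroblast the log2 ratio was 2.87.

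LRP2, or megalin, a large endocytic receptor that takes up SHH in the forebrain neuroepithelium, was likewise higher in every iNSLC than in every PSC cell. It spanned 7.91 to 281 normalized counts in iNSLCs with a median of 119. No read of LRP2 was found in any of the 5 PSC cells or in the fibroblast. The log2 ratio of LRP2 over PSC cells thus depended on the pseudocount, being 6.99 with 1 and 3.76 with 10. The iNSLC mean of 126 ± 58.1 (SD, 65 cells) exceeded that of PSC cells at least 194-fold, and the level of the fibroblast at least 104-fold, taking 3 reads over the group as the limit of a count of 0. LRP2 was also among the steadier of the 10 genes between iNSLCs: its coefficient of variation was 0.462, against a median of 0.527 for the 725 genes whose mean was within 2-fold of it, of which 30.3% varied less. A single cell, iNSLC 78, held the lowest value with 6 reads, the next being 34.0 in iNSLC 58. After every cell was thinned to 134328 reads, which left out 8 iNSLCs, LRP2 was read in 57 of 57 iNSLCs and 0 of 5 PSC cells.

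GAS1, a membrane-anchored co-receptor that cooperates with BOC and CDON, was read in 62 of 65 iNSLCs (95.4%, exact Clopper-Pearson 95% interval 87.1 to 99.0%). Its level ran from 0 to 232 normalized counts with a median of 49.8 in iNSLCs, and it had no read in the 5 PSC cells and 29.1 in the fibroblast. The mean of 62.0 ± 51.4 in iNSLCs exceeded that of PSC cells at least 95.7-fold. Relative to the fibroblast the log2 ratio was 1.06, and 45 of 65 iNSLCs lay above that cell and 20 below it, so the groups overlapped. Its coefficient of variation over all iNSLCs was 0.830 against a median of 0.596 for genes of similar mean, and it was 0.650 within the iNSLCs numbered 57 or above and 0.769 within those numbered 56 or below.

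CDON, the closest relative of BOC, moved less. It was read in all 65 iNSLCs, from 6.69 to 187 normalized counts with a median of 37.9. Among ESCs the levels were 15.8, 0, 8.64 and 10.8, with 27.8 in the iPSC and 25.9 in the fibroblast. The groups overlapped: 41 iNSLCs lay above every PSC cell and 45 above the fibroblast. The log2 ratio was 1.76 over PSC cells and 0.77 over the fibroblast, where it passed 2-fold only with totals made equal (1.54, or 0.83 relative to the median of all genes). The ESC with no CDON read, cell 11, was the shallowest PSC cell and also had no read of SMO or GLI3.

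PTCH1, the receptor that restrains SMO and a direct target of the pathway, was read in every iNSLC, with a lowest value of 31.2, a median of 129 and a highest value of 358 normalized counts. PTCH1 was 62.3, 33.2, 30.8 and 31.7 in the ESCs, 15.0 in the iPSC and 0.40, which is 1 read, in the fibroblast. In 56 of 65 iNSLCs the level was above that of every PSC cell, and no iNSLC was as low as the fibroblast. Mean levels of 140 ± 76.6 in iNSLCs and 34.6 ± 17.2 in PSC cells gave a log2 ratio of 1.98, or 4.04-fold on the plain means. Against the single fibroblast read the fold of 345 has a counting interval of 62.0 to 13635.

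SMO, the transmembrane protein that PTCH1 restrains, sat at the 2-fold limit. Levels in iNSLCs were 0 to 190 normalized counts with a median of 74.0, and 64 of the 65 cells had a read. They were 99.99, 0, 35.1 and 36.7 in the ESCs, 35.3 in the iPSC and 33.2 in the fibroblast. ESC 10 exceeded the iNSLC median, and 22 iNSLCs lay above every PSC cell. The log2 ratio over PSC cells was 1.01 and ranged from 0.70, without the shallow ESC 11, to 1.63, without ESC 10; it was under 1 also without ESC 12, without ESC 14 and without the iPSC (0.96 to 0.97). Relative to the fibroblast it was 1.32, and 58 of 65 iNSLCs lay above that cell. With only the iNSLCs numbered 56 or below, SMO passed 2-fold against neither (0.68 over PSC cells and 0.99 over the fibroblast).

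HHIP, a membrane protein that sequesters hedgehog ligands and is induced by the pathway, was read in 25 of 65 iNSLCs (38.5%, exact interval 26.7 to 51.4%) and in no other cell. Its iNSLC levels had a median of 0 and a highest value of 42.9 normalized counts, in iNSLC 75, with 266 reads in all. The mean of 4.29 ± 8.23 exceeded that of PSC cells at least 6.62-fold and the level of the fibroblast at least 3.53-fold. Thinning to equal depth left the share at 22 of 57 iNSLCs. A pseudocount of 10 or medians over cells ended the 2-fold difference from both (log2 ratios of 0.51 and 0.00).

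GLI1, the GLI factor that acts only as an activator and is the most used transcript readout of the pathway, was the single gene of the 10 that was lower in iNSLCs than in PSC cells. It had no read in 57 iNSLCs. The other 8 (cells 26, 29, 44, 65, 75, 82, 91 and 95) held 67 reads together, with levels up to 20.03 normalized counts. Every PSC cell had GLI1: the ESCs had 10.1, 35.7, 29.2 and 44.2 and the iPSC 7.48, while the fibroblast had no read. The share of iNSLCs with a read was 12.3% (exact interval 5.47 to 22.8%), and 61 of 65 iNSLCs lay below every PSC cell. The means of 1.14 ± 3.65 in iNSLCs and 25.3 ± 16.0 in PSC cells gave a log2 ratio of -3.62, which ranged from -3.84 to -3.33 when each PSC cell was left out. The 57 iNSLCs without GLI1 had a median of 271194 reads, against 194144 for the 8 with it, and at equal depth GLI1 was read in 7 of 57 iNSLCs and 4 of 5 PSC cells.

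The PSC reads of GLI1 carry a limit. GLI1 overlaps ARHGAP9, a gene for a GTPase-activating protein, in the RefSeq annotation used for names, and whether the authors counted reads by strand is not given in the sources used here. ARHGAP9 itself differed between the same groups, with a mean of 0.551 normalized counts and a read in 7 of 65 iNSLCs, against 26.2 and 5 of 5 PSC cells. In single PSC cells ARHGAP9 had 79, 6, 16 and 71 reads in the ESCs and 15 in the iPSC, beside 25, 14, 54 and 53 reads and 7 reads of GLI1. The order of the PSC cells thus differed between the genes, and among iNSLCs only cell 82 had reads of both. How the reads of this locus divided between the genes was not tested, so the GLI1 level in PSC cells is uncertain.

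GLI2, the main activator of the family, did not pass 2-fold in either comparison. Its iNSLC levels were 0 to 229 normalized counts with a median of 56.8. They were 67.2, 46.0, 44.8 and 40.8 in the ESCs, 17.1 in the iPSC and 40.5 in the fibroblast. All of these lay inside the iNSLC range, with 29 iNSLCs above and 11 below every PSC cell. The log2 ratio was 0.61 over PSC cells and 0.70 over the fibroblast. With totals made equal, the ratio to the fibroblast was 1.42, or 0.72 relative to the median of all genes. GLI2 is the gene whose direction depended on which iNSLCs were used, as described below.

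GLI3, the family's main repressor in the absence of ligand, was higher in iNSLCs than in PSC cells but not than in the fibroblast. It ran from 0 to 272 normalized counts in iNSLCs with a median of 112, and 63 of 65 had a read. It was 20.6, 0, 28.6 and 31.7 in the ESCs, 39.5 in the iPSC and 89.0 in the fibroblast. Of the iNSLCs, 52 lay above every PSC cell and 41 above the fibroblast. Log2 ratios were 2.15 over PSC cells and 0.30 over the fibroblast. The latter passed 2-fold only with totals made equal (1.07, or 0.37 relative to the median of all genes).

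**Figure D2:**
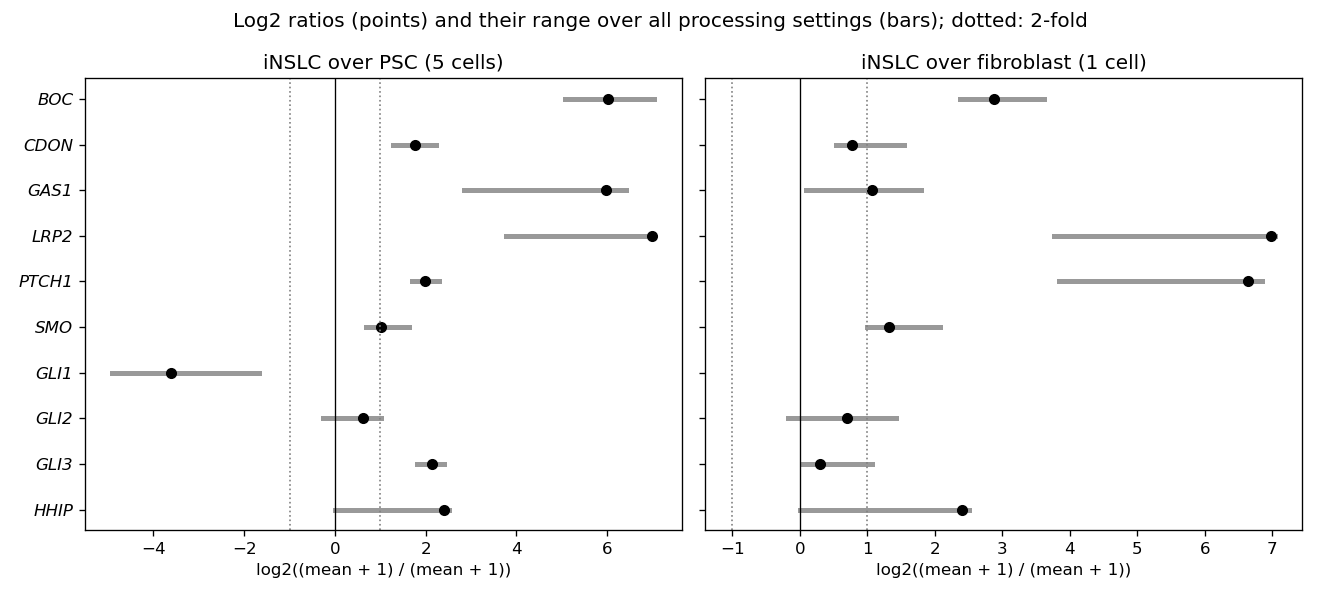
Log2 ratio of each gene (points), iNSLC over the 5 PSC cells on the left and iNSLC over the fibroblast on the right, with bars for the range over all processing settings and leave-one-out values and dotted lines at 2-fold; GLI1 has no ratio to the fibroblast because its iNSLC mean is under the level of 3 fibroblast reads. BOC at 6.01 and LRP2 at 6.99 stand far to the right of PSC cells, GLI1 at -3.62 stands to the left, and the bar of GLI2 crosses 0.

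The co-receptors and PTCH1 were read together in the same cells, and GLI1 mostly was not. BOC and LRP2 were each read together with PTCH1 in 65 of 65 iNSLCs (exact interval 94.5 to 100%). This follows from each of these genes being read in every iNSLC and adds nothing to it. They were read together with GLI1 in 8 of 65, which is simply the number of iNSLCs with GLI1. Of the 3 pathway targets, PTCH1 alone was read in 36 iNSLCs, PTCH1 with HHIP in 21, PTCH1 with GLI1 in 4, and all 3 in 4. All 5 PSC cells had PTCH1 and GLI1 without HHIP. The fibroblast had its 1 read of PTCH1 only. Between 6 and 10 of the genes were read per iNSLC, with 8 in 32 cells and 9 in 26; iNSLCs 44, 65 and 75 had all 10.

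The balance of PTCH1 to GLI1 within a cell differed between the groups, a measure taken up after the values had been seen. In the 8 iNSLCs with GLI1 there were 9.50 to 40.0 PTCH1 reads per GLI1 read. In the ESCs there were 6.16, 0.929, 1.06 and 0.717, and in the iPSC 2.00. All 8 iNSLCs thus lay above all 5 PSC cells, and the other 57 iNSLCs had 11 to 439 PTCH1 reads and none of GLI1. The ratios of the 8 iNSLCs rest on 2 to 27 GLI1 reads per cell, and the lowest, in iNSLC 91, on 2. Their counting error was not computed, nor was the share of other gene pairs separated in this way, so nothing is read from the separation. On the group means PTCH1 stood at 122 to 1 of GLI1 in iNSLCs and at 1.37 to 1 in PSC cells, with the limit on GLI1 reads in PSC cells given above. These are ratios of reads, not of transcripts.

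**Figure D3:**
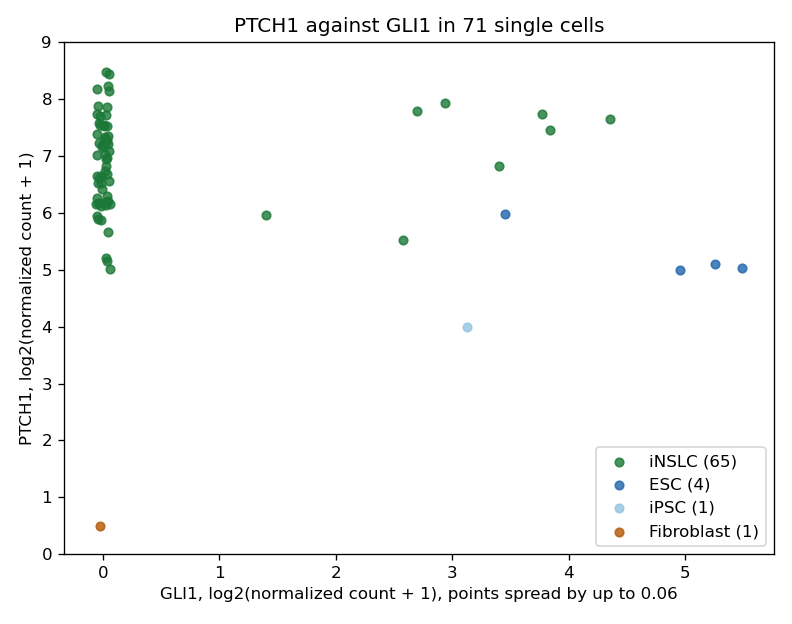
PTCH1 against GLI1 in the 71 cells, both as log2(normalized count + 1), coloured by group. The 57 iNSLCs without a GLI1 read form the column at the left. The 8 iNSLCs with GLI1 lie to the right, at 45.0 (iNSLC 91) to 242 (iNSLC 29) normalized counts of PTCH1. The PSC cells combine GLI1 with 15.0 to 62.3 of PTCH1, so the 2 ranges of PTCH1 overlap.

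The balance of GLI3 to GLI2 overlapped between the groups. Per read of GLI2 there were a median of 1.78 GLI3 reads in iNSLCs (0 to 14.7 in the 64 with GLI2), 0 to 0.776 in the ESCs, 2.31 in the iPSC and 2.20 in the fibroblast, so the iNSLC range held all other cells. The ratio of mean GLI3 to mean GLI2 was 1.66 in iNSLCs, 0.558 in PSC cells and 2.20 in the fibroblast. Within iNSLCs this ratio depended on the cells taken, being 1.40 in those numbered 57 or above and 2.54 in those numbered 56 or below. These too are ratios of reads and not of transcripts, and were taken up after the values had been seen.

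The cell numbers mark a difference inside the iNSLCs. The 38 cells numbered 57 or above had a median of 208746 reads and 11333.5 detected genes, and the 27 numbered 56 or below had 357910 reads and 10061 genes; the labels do not say what the numbers stand for, and the boundary was set after these data had been seen. GLI2 averaged 88.2 normalized counts in the cells numbered 57 or above and 35.8 in those numbered 56 or below, and GAS1 averaged 84.0 and 31.1. Those log2 ratios of 1.28 and 1.41 were the only ones of the 10 to pass 2-fold, which 14.0% of all genes did. BOC (741 and 435), SMO (97.2 and 66.9), PTCH1 (158 and 114) and GLI3 (124 and 91.0) differed by less. LRP2 (123 and 130) and CDON (45.5 and 44.3) had log2 ratios of -0.08 and 0.04, where the median of all genes was 0.04. GLI1 was read in 5 of 38 and 3 of 27 cells, HHIP in 15 of 38 and 10 of 27.

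This split changed some comparisons between groups. The GLI2 log2 ratio over PSC cells was 1.01 with the iNSLCs numbered 57 or above and -0.26 with those numbered 56 or below, and over the fibroblast 1.11 and -0.17. With the cells numbered 56 or below, the GAS1 ratio over the fibroblast was 0.09 in place of 1.06, and SMO lost 2-fold against both, as given above. For BOC and LRP2 every iNSLC of either set lay above every PSC cell, which follows from the same result over all iNSLCs and is no further check.

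Over the 65 iNSLCs Spearman correlations of the 45 pairs of the 10 genes ran from -0.20 to 0.60 with a median of 0.11, and 5 pairs reached 0.4; the cells share 1 culture and differ in depth, so these are descriptions. PTCH1 and GLI2 had the highest value, 0.60. It was 0.50 within the cells numbered 57 or above and 0.39 within those numbered 56 or below. GLI2 and PTCH1 were also the members most correlated with the number of detected genes, at 0.52 and 0.44, and the part of this in their own correlation was not tested. GAS1 correlated with GLI3 (0.50), BOC (0.47) and GLI2 (0.43), and GLI2 with GLI3 (0.40). In the cells numbered 57 or above and those numbered 56 or below these were 0.60 and 0.28 for GLI3, 0.42 and 0.06 for BOC, 0.34 and -0.23 for GLI2, and 0.28 and 0.38 for GLI2 with GLI3, so GAS1 with GLI2 changed sign.

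**Figure D4:**
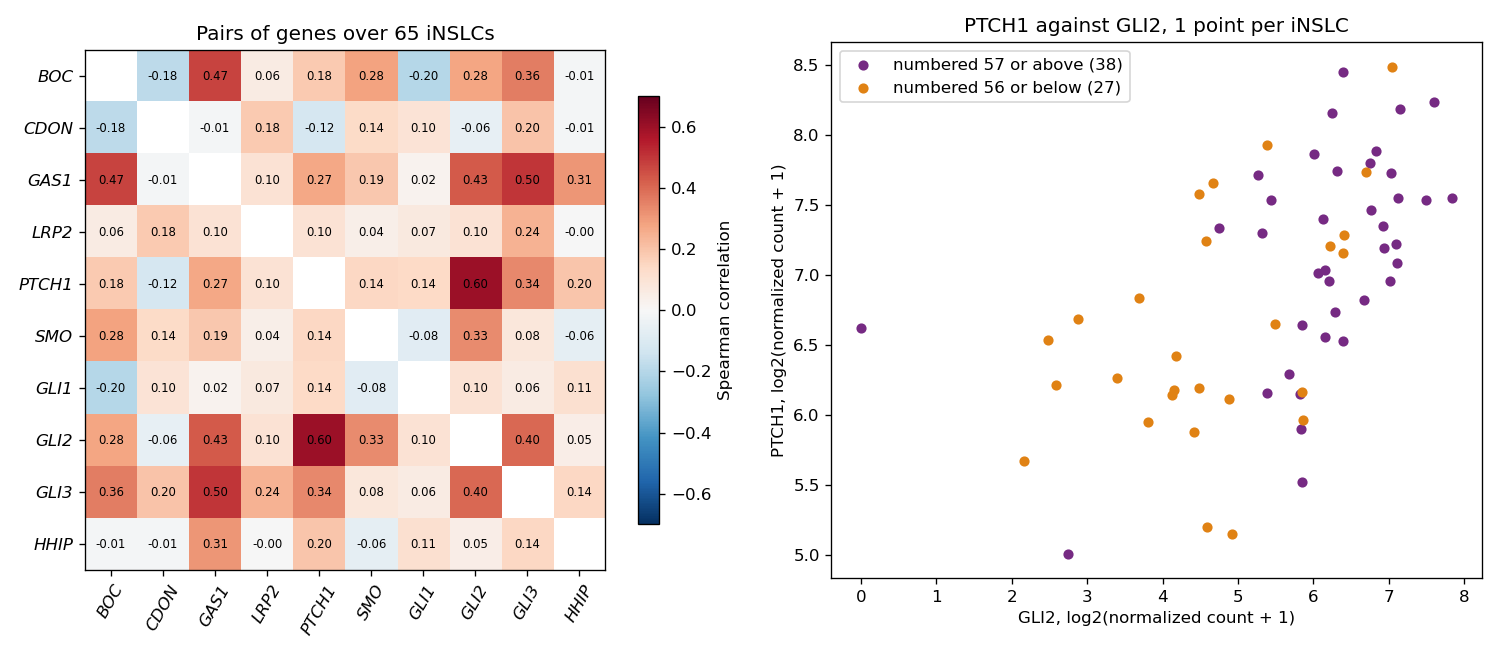
Left, Spearman correlation of each pair of the 10 genes over 65 iNSLCs; right, PTCH1 against GLI2 in the same cells, as log2(normalized count + 1), coloured by cell number. PTCH1 with GLI2 is the strongest pair at 0.60, and the cells numbered 56 or below spread to lower GLI2.

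Between co-receptors and targets, GAS1 had the highest correlations, 0.31 with HHIP (0.44 within the cells numbered 57 or above and 0.14 within those numbered 56 or below) and 0.27 with PTCH1 (0.23 and -0.06). BOC had a correlation of 0.18 with PTCH1, which was 0.37 within the cells numbered 57 or above and -0.48 within those numbered 56 or below, and of -0.20 with GLI1. LRP2 had 0.10 with PTCH1 and 0.07 with GLI1. PTCH1 had 0.14 with GLI1 and 0.20 with HHIP. The 8 iNSLCs with GLI1 included 4 with HHIP, where the shares alone give 3.08.

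A search of 5793 genes, each read in at least 50% of iNSLCs with a mean of at least 10, gave the genes whose levels followed each of the 8 widely read members most closely by Spearman correlation over the 65 iNSLCs. BOC lay nearest to CKB, the brain creatine kinase (0.71), SMOC1, a secreted calcium-binding protein (0.70), and B4GALNT4 (0.63). GAS1 lay nearest to CRB2, an apical polarity protein of neuroepithelium (0.70), HES4, a Notch-regulated repressor (0.67), and HSPG2, the proteoglycan perlecan (0.65). PTCH1 lay nearest to RGMA, a membrane-anchored BMP co-receptor (0.62), to GLI2 (0.60) and to DNAH1, an axonemal dynein (0.58). It was the only member with another of the 10 among its nearest 3, and in the list of GLI2, led by SPECC1L (0.73), the histone deacetylase HDAC4 (0.68) and the splicing factor SNRNP70 (0.67), PTCH1 ranked 8. GLI3 was followed by BTBD2 (0.57), the Polycomb protein PHC2 (0.56) and RHPN1 (0.56), and SMO by IFRD2 (0.52), WDR77 (0.52) and the Frizzled receptor FZD2 (0.51). LRP2 and CDON had weaker partners, with HMGA2 (0.50), PRKDC (0.49) and ATP2B4 (0.48) for LRP2 and TAGLN2 (0.48), DEGS1 (0.41) and CKAP5 (0.41) for CDON. Of these 24 correlations, 13 were lower within both sets of iNSLCs than over all 65 cells, CRB2 with GAS1 at 0.44 in the cells numbered 57 or above and 0.39 in those numbered 56 or below; within sets they ran from 0.25 to 0.71 and from 0.31 to 0.74. Highest values of so many are raised by selection, and nothing is read from them on function.

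Of the ligands, SHH had 5 reads in 1 iNSLC, cell 84, and none in PSC cells or the fibroblast, and that cell had no read of GLI1 or HHIP and 93.1 normalized counts of PTCH1. DHH was read in 10 of 65 iNSLCs (15.4%, exact interval 7.63 to 26.5%) and 2 of 5 PSC cells, with means of 0.452 and 1.54 normalized counts, and IHH was not analysed here. Among 6 genes of ligands and their release with a mean of at least 1, 2 were higher in iNSLCs than in PSC cells and 0 lower, beside 17.3% and 24.5% of all genes. Their median log2 ratio was -0.01. The higher ones were SCUBE2, a secreted protein that helps release lipid-modified ligand (109 in iNSLCs, 4.50 in PSC cells, log2 ratio 4.32), and DISP2 (2.92 and 0.214, log2 ratio 1.69). DISP2 was read in only 13 of 65 iNSLCs, with a median level of 0, and had 1 read in PSC cells. SCUBE1 (-0.87), SCUBE3 (0.00), HHAT (-0.56) and DISP1 (-0.03) passed 2-fold in neither direction.

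Of 5 other genes listed as regulators at the receptor level, 3 were higher and 0 lower, beside 17.3% and 24.5% of all genes. Their roles were not tested here. Among them were the glypicans GPC3 (84.8 in iNSLCs, 9.89 in PSC cells, log2 ratio 2.98) and GPC6 (2.36). Glypicans are cell surface proteoglycans that bind hedgehog ligands. GPR161 (0.23) and MGRN1 (0.09) passed 2-fold in neither direction. DLK1 (1.06) was also higher, and its ratio is the median of this list. It was read in only 11 iNSLCs (16.9%), with a median level of 0 and a highest value of 154 normalized counts. Both the median and the count of higher genes thus rest in part on a few cells. Of 14 regulators of GLI proteins, 3 were higher, 1 lower and 10 neither, with a median of 0.35, beside 17.3% higher and 24.5% lower among all genes. The higher ones were the zinc-finger factors ZIC1 (72.3 in iNSLCs, no read in PSC cells) and ZIC2 (log2 ratio 1.33), which are dorsal neural genes that bind GLI proteins, and PRKACA (1.29), the protein kinase A subunit that primes GLI factors for processing. The lower one was the kinase STK36 (-1.22), while SUFU, which holds GLI proteins in the cytoplasm, and KIF7, a ciliary kinesin, had log2 ratios of -0.37 and -0.24.

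Of 16 primary cilium genes, 3 were higher, 5 lower and 8 neither, with a median of -0.53, beside those same shares of all genes. IFT140 (21.6 in iNSLCs, 110 in PSC cells, log2 ratio -2.30), IFT172 (-1.66), the motor KIF3B (-1.31), EVC (-1.26) and DYNC2H1 (-1.12) were lower, and EVC2 (1.43), RAB23 (1.27), a negative regulator of the pathway in mice, and INTU (1.19) were higher. Of 14 other listed targets 8 had a row and 4 a mean of at least 1. Of these 4, 1 was higher and 0 were lower, beside 17.3% and 24.5% of all genes, and the median was -0.35. The higher one was CCND2 (346 in iNSLCs, 69.0 in PSC cells, log2 ratio 2.31). MYCN (-0.07), CCND1 (-0.64) and BCL2 (-0.94) passed 2-fold in neither direction. NKX6-1, a ventral neural tube gene, was read in 3 iNSLCs. The lists are a description beside the median of -0.16 over all genes.

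**Figure D5:**
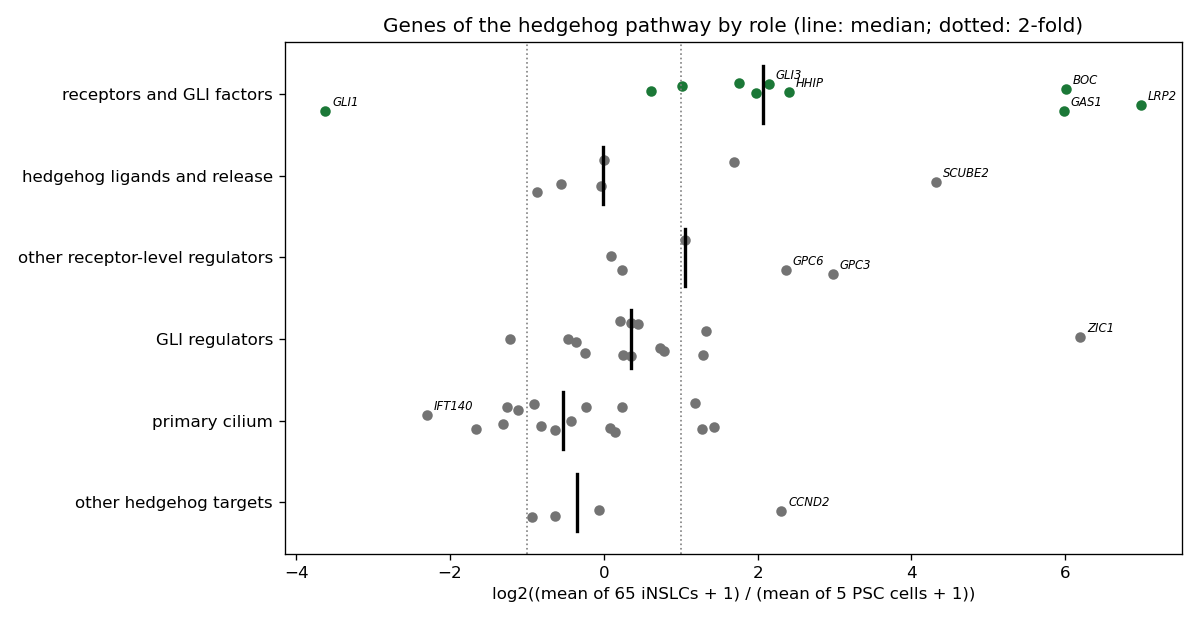
Log2 ratio of iNSLC over PSC cells for the genes of each role with a mean of at least 1, 1 point per gene, with the median as a line and dotted lines at 2-fold; genes past 4-fold are named. The 10 receptors and GLI factors have a median of 2.07 and span GLI1 at -3.62 to LRP2 at 6.99, and the cilium genes have the lowest median, -0.53.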

How the data were processed

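The authors deposited 1 table of gene counts normalized with TCC over single-cell RamDA-seq libraries, a signal in which each cell's values are whole multiples of 1 step, so reads were recovered (100% of values within 0.02 reads). Tools in the submitters' processing notes are featureCounts 1.5.1, Seurat 3.0.0, STAR 2.6.0c and Trimmomatic. The build, annotation and strand setting were not given in the sources used here. One unnamed row, at most 0.449% of a cell's total, was left out. Cells were grouped by GEO's labels, and each group has 1 source. The 10 genes and all lists were chosen with earlier results of these data known. Ratios of means used a pseudocount of 1, and genes with a mean of at least 1 over all 71 cells formed the background. Shares have exact Clopper-Pearson 95% intervals, and without molecular identifiers intervals and floors (3 reads) cover counting error only. Named genes were the 10 members, the 3 nearest genes of each member read in at least 50% of iNSLCs, the ligand genes with a read, and up to 4 genes per list by absolute ratio; SUFU, KIF7, DYNC2H1, RAB23, EVC, INTU, ARHGAP9 and the markers with values were named after their values were seen. Doublets were not called, as cells were sorted 1 per well. Coordinates and sequences are not used here, and 1 gene first placed on the lists is not reported here and was left out of their counts. Analyses ran in Python 3.11.15 with pandas 2.3.3, numpy 2.4.6, scipy 1.17.1 and matplotlib 3.10.9, and ratios and correlations were tested on simulated data. Alternatives were another pseudocount, scaling to equal totals, medians, other filters, subsets of iNSLCs, thinning, and leaving out PSC cells.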

Additional observations from a re-analysis of the deposited data

Results flagged for a closer look

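PTCH1 in ESC 10 was 62.3 normalized counts, while the other 3 ESCs had 30.8 to 33.2, a gap of 0.923 of the range over the 4 cells. It was 1 of 7 genes examined in the ESCs, and chance puts about 1 in 20 groups past this limit. ESC 10 was also the deepest ESC and had the highest SMO of the 4, at 99.99; its part in the comparisons is shown by leaving it out, when the PTCH1 log2 ratio of iNSLCs over PSC cells was 2.30 in place of 1.98.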

How the results depend on the processing

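Against PSC cells, 6 to 9 of the 10 genes were higher and GLI1 was lower under all alternatives tried, except that with a mean of at least 10 GLI1 was filtered out and 0 were lower. Leaving out each PSC cell gave 7 to 8 higher and 1 lower; SMO made the difference. Against the fibroblast the count of 7 higher became 4 with a pseudocount of 10 and 4 with medians over cells, where GAS1, GLI1 and HHIP dropped out, and 10 with every cell scaled to the median total, where 41.0% of all genes were higher and their median was 0.71. It was 5 with a mean of at least 10, where GLI1 and HHIP were filtered out. It was also 5 with iNSLCs numbered 56 or below, and 8 with those numbered 57 or above. With at least 10 normalized counts in place of 1 read, GLI1 was present together with BOC or with LRP2 in 4.62% of iNSLCs. The correlation of GAS1 with GLI2 turned to -0.23 in iNSLCs numbered 56 or below; the cause was not tested. A pseudocount of 10 took the share of all genes past 2-fold over PSC cells to 4.77% higher and 11.7% lower, and with no filter 10.5% were higher. No paired analysis was possible because the labels do not pair a cell of 1 group with a cell of another. Each group is 1 culture and the fibroblast 1 cell, so culture, medium and clone cannot be told apart from cell type.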
